A study of Homo sapiens with 2 samples.

Results

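Paraspeckles are nuclear bodies built on the long noncoding RNA NEAT1. The DBHS family (SFPQ, NONO and PSPC1) binds along this RNA, and a wider circle of proteins, most of them RNA-binding proteins with disordered low-complexity regions, joins the body. Some of these stabilise NEAT1 or choose its long form, some hold the bundled RNA together, and others are found in the body without being needed for it. The 31 genes described here encode paraspeckle proteins outside the DBHS family. They were taken from a list of known paraspeckle proteins and matched by gene symbol. All 31 were found among the 25582 genes with an annotated transcript in both deposited files.

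The RNA came from A549, a human non-small cell lung cancer line, grown with serum and antibiotics. In one group the cells carried a short hairpin RNA against PSPC1 (shPSPC1), and in the other a control hairpin against bacterial LacZ (shLacZ). Each group is 1 library of total RNA, so differences between the groups have no replicate check and no test was possible. In such bulk RNA, fewer cells with a transcript and less of it per cell cannot be told apart. The hairpin sequence, the number of hairpins, the vector and the time after its delivery are not given in the labels.

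Levels are FPKM, sequenced fragments scaled to the length of the transcript and to the depth of the library, summed over the transcripts of a gene. The value after ± is the distance from the estimate to the edge of the 95% interval that the assembly program gave, and it covers error within 1 library only. A log2 ratio is shPSPC1 over shLacZ after adding 1 FPKM to each, which understates the difference for genes of low level. Because FPKM divides by length, a gene's sum moves when its fragments are assigned to transcripts of another length. The same ratio was therefore also taken from estimated fragments, the FPKM multiplied back by transcript length and depth. For this ratio a gene's fragments were divided by those that 1 FPKM stood for over its longest annotated transcript. Then 1 FPKM was added. It is thus not the plain ratio of the fragments printed beside it, and for genes of low level it can be smaller in size. The estimated depth was 56900000 fragments in shPSPC1 and 56100000 in shLacZ, so that 1 FPKM over 2000 bases stood for 105 and 103 fragments. PSPC1 itself was at 17.7 ± 0.858 FPKM in shPSPC1 and 31.5 ± 1.25 in shLacZ, a log2 ratio of −0.79 by summed FPKM and −0.80 by fragments, so the targeted messenger was lower in the library labelled as the knockdown. All 7 A549 epithelial markers were at 1 FPKM or more. Of the leukocyte markers only CD14 reached that level, and no fibroblast or endothelial marker did.

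The 31 genes had a higher median level than expressed genes in all, and none passed a 2-fold rule for a difference between the libraries. In both libraries 27 of them were at 1 FPKM or more. AHDC1, FIGN and MEX3A stayed below it in both, and ZC3H6 reached it only in shPSPC1. The median level was 18.6 FPKM in shPSPC1 and 17.2 in shLacZ, against 9.17 and 9.10 FPKM over the 10815 genes expressed in both. The summed level of the 31 genes was 1298 FPKM in shPSPC1 and 1318 FPKM in shLacZ. By FPKM the most abundant were RBM3, HNRNPK, MATR3, HNRNPUL1 and HNRNPA1, and the least abundant was AHDC1.

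**Figure D1:**
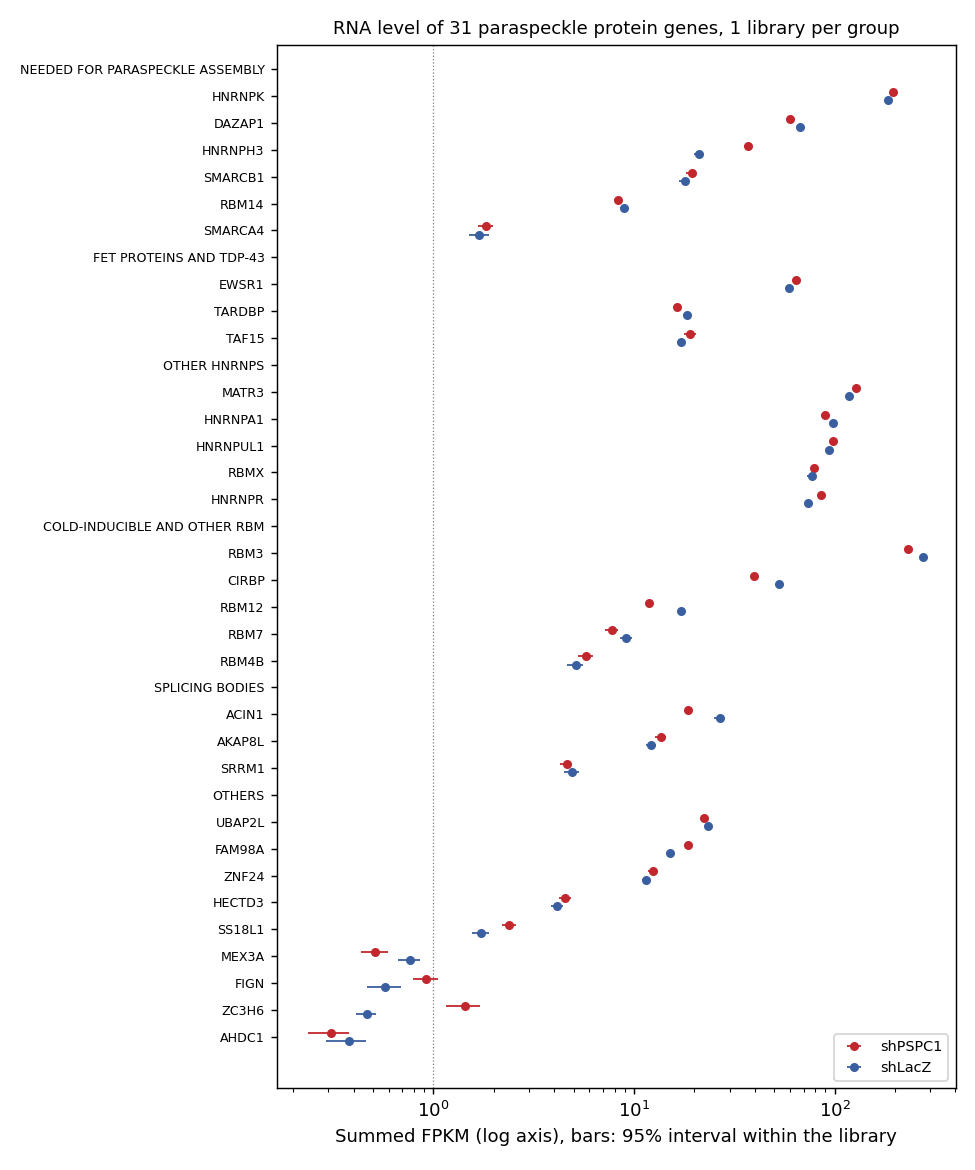
Summed FPKM (log axis) of the 31 genes in shPSPC1 (upper point of each row) and shLacZ (lower point), grouped by role, with 1 library each; bars are the 95% interval within a library and the dotted line is 1 FPKM. The levels run from 0.310 FPKM for AHDC1 in shPSPC1 to 274 FPKM for RBM3 in shLacZ, and the points of most genes lie side by side.

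Of the 28 members at 1 FPKM or more in the library where they were higher, none passed a 2-fold rule (log2 ratio of 1 or more in size, with 95% intervals that do not overlap) by summed FPKM. Among all 11509 genes so tested, 1.70% passed it as higher and 1.99% as lower in shPSPC1. At 1.5-fold, 2 members passed as higher, HNRNPH3 and ZC3H6, where 4.37% of all genes did, and 0 passed as lower, where 5.46% of all genes did. By estimated fragments, with 1 FPKM added, none of the members passed either rule. This count rests on the added 1 FPKM for genes of low level. Without it the fragments of SMARCA4 in shPSPC1 were 1.55 times those in shLacZ, and those of FIGN 1.81 times, both with intervals apart. No smaller pseudocount was tried by fragments. With annotated transcripts alone, by which 27 members were tested, 2 passed at 2-fold (9.75% of all genes) and 4 at 1.5-fold (19.7% of all genes). The 28 members tested by fragments differ by 1 gene, since on that scale FIGN reached 1 FPKM in shPSPC1 and ZC3H6 did not reach it. The background by fragments was 1.81% higher and 1.87% lower at 2-fold, and 3.41% higher and 4.68% lower at 1.5-fold. The intervals of 9 members lay apart with shPSPC1 higher (26.0% of all genes) and those of 8 with shPSPC1 lower (25.6% of all genes). By fragments these counts were 11 members, against 24.7% of all genes, and 5 members, against 24.5%. The members' median log2 ratio was 0.07 by either measure, with 17 above 0 and 11 below, and the median of all genes was 0.01. Above 0 were 60.7% of the members by either measure, against 50.9% of all genes by FPKM and 51.1% by fragments. The median distance from a member's log2 ratio to the edge of its interval was 0.109.

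**Figure D2:**
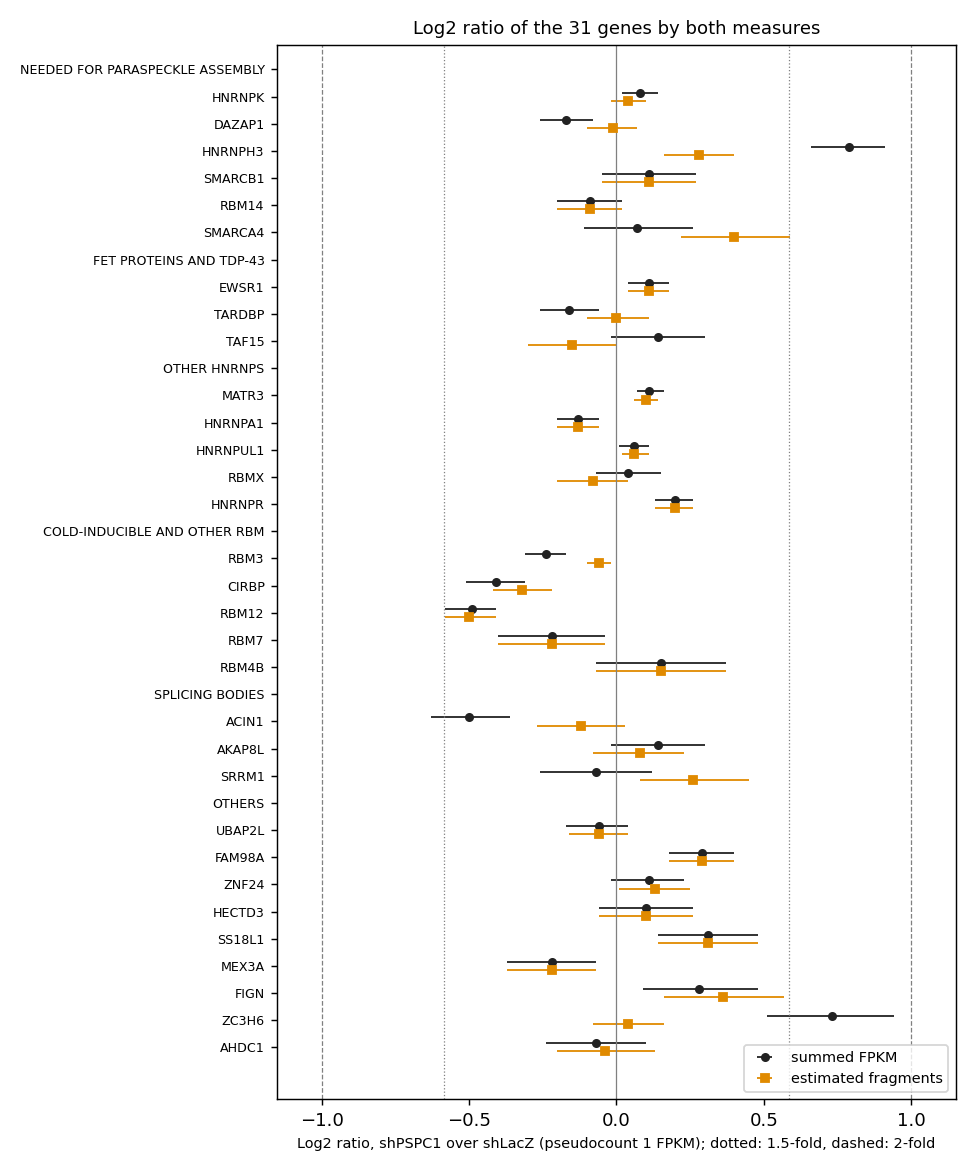
Log2 ratio of shPSPC1 over shLacZ for each of the 31 genes, by summed FPKM (circles) and by estimated fragments (squares), with bounds from the 95% intervals of both libraries; dotted lines mark 1.5-fold and dashed lines 2-fold. Both symbols coincide for genes such as HNRNPR, FAM98A and RBM12, and lie far apart for HNRNPH3, ZC3H6, ACIN1 and SMARCA4.

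The first role group holds proteins without which paraspeckles fail to form or lose their shape in knockdown studies. HNRNPK, which favours the long form of NEAT1, was at 194 ± 3.1 FPKM in shPSPC1 and 184 ± 4.69 in shLacZ, with 24383 and 23430 estimated fragments and log2 ratios of 0.08 by FPKM and 0.04 by fragments. RBM14, a protein with a prion-like region that helps to bundle the body, was at 8.28 ± 0.353 FPKM in shPSPC1 and 8.87 ± 0.365 in shLacZ, and these intervals overlapped. DAZAP1, an RNA-binding protein with a proline-rich tail, was at 59.9 ± 1.85 FPKM in shPSPC1 and 67.5 ± 2.15 in shLacZ, a log2 ratio of −0.17. Its fragments were nearly equal, at 6116 in shPSPC1 and 6076 in shLacZ (log2 ratio −0.01). What differed for DAZAP1 was which short transcript was assembled beside the annotated one. The annotated 12-exon form was at 35.2 FPKM in shPSPC1 and 35.4 in shLacZ, while an assembled form of 1622 bases (24.7 FPKM) was listed for shPSPC1 alone and one of 1299 bases (32.1 FPKM) for shLacZ alone.

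HNRNPH3, a member of the hnRNP H family, had the highest log2 ratio of the 31 genes by summed FPKM. It was at 36.9 ± 1.58 FPKM in shPSPC1 and 21.0 ± 0.972 in shLacZ, a log2 ratio of 0.79 (bounds 0.66 and 0.91). In fragments it had 3263 in shPSPC1 and 2631 in shLacZ, a log2 ratio of 0.28 (bounds 0.16 and 0.40), which stayed above 0 but short of 1.5-fold. Annotated transcripts alone gave −0.47, so that the direction turned. In shPSPC1 an assembled transcript of 1243 bases held 22.0 FPKM, or 59.7% of the gene, and no such transcript was listed for shLacZ. The full-length annotated form that includes a 45-base coding segment was at 14.9 ± 0.76 FPKM in shPSPC1 and 13.1 ± 0.741 in shLacZ. The annotated form without this segment was listed at 0 in shPSPC1, against 7.88 ± 0.629 FPKM in shLacZ. Both annotated forms have 10 exons, so the 45 bases are part of an exon. The assembled transcript also lacks the 45 bases. Inclusion of the segment was 40.3% of FPKM in shPSPC1 and 62.5% in shLacZ, but 58.4% of fragments in shPSPC1 and 62.9% in shLacZ. The segment, headed as an exon below although it is part of one, is shown in capitals with 12 bases of the transcript on either side. It is the sequence by which the annotated forms differ. It was read from GENCODE 29 transcripts on GRCh38 (plus strand), at chr10:68338643-68338687, and is written 5′ to 3′.
HNRNPH3 exon of 45 bases: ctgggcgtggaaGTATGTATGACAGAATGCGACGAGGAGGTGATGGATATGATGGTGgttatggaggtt

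SMARCA4 and SMARCB1 are subunits of the SWI/SNF chromatin remodelling complex, which takes part in paraspeckle assembly. A549 is known as a line that lacks functional SMARCA4 (BRG1) protein. SMARCA4 messenger was low, at 1.83 ± 0.16 FPKM in shPSPC1 and 1.69 ± 0.193 in shLacZ, a log2 ratio of 0.07. By fragments it had the highest ratio of the members at 1 FPKM or more, with 773 in shPSPC1 and 499 in shLacZ, a log2 ratio of 0.40 (bounds 0.22 and 0.59). Of the fragments in shPSPC1, 442 were in an assembled transcript of 11267 bases that was listed for that library alone and that carries 6174 bases of sequence found in none of the other SMARCA4 transcripts with a level above 0. The annotated transcripts alone gave a log2 ratio of −0.15. SMARCB1 was at 19.4 ± 1.11 FPKM in shPSPC1 and 17.9 ± 1.08 in shLacZ, with overlapping intervals and a log2 ratio of 0.11 by both measures. Its alternative coding segment of 27 bases was included in 63.8% of FPKM in shPSPC1 (bounds 59.8 and 67.7) and in 61.3% in shLacZ (bounds 57.1 and 65.5), ranges that overlap. It lies at chr22:23791868-23791894 on GRCh38 (plus strand, GENCODE 29), and is shown in capitals between 12 flanking bases as an A-rich stretch of 29.6% GC whose inclusion did not differ beyond the intervals.
SMARCB1 segment of 27 bases: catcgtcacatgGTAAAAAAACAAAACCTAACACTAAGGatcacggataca

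Over these 6 genes the median log2 ratio was 0.07 by both measures, with 4 above 0 and 2 below. One passed the 1.5-fold rule by summed FPKM, HNRNPH3, and none by fragments.

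EWSR1 and TAF15 belong to the FET family, RNA-binding proteins with a low-complexity prion-like region, and TARDBP encodes TDP-43, which binds UG-rich RNA and limits its own messenger. EWSR1 was at 64.3 ± 1.6 FPKM in shPSPC1 and 59.4 ± 1.54 in shLacZ, a log2 ratio of 0.11 by both measures with intervals apart. TARDBP was at 16.3 ± 0.531 FPKM in shPSPC1 and 18.4 ± 0.801 in shLacZ, a log2 ratio of −0.16. Its fragments were 3769 in shPSPC1 and 3709 in shLacZ, a log2 ratio of 0.00. Behind the equal fragments lay different transcripts. In shPSPC1 the annotated 6-exon form of 4217 bases held 16.3 FPKM and 100% of the gene. In shLacZ it held 3.34 ± 0.433 FPKM or 18.2%, and an assembled 7-exon form of 3659 bases, listed for that library alone, held 15.02 ± 0.674 FPKM or 81.8%. The 7-exon form lacks 774 bases inside the last annotated exon, at positions 11084393 to 11085166 of chromosome 1 in the files' coordinates, for which no header or label names a genome build. With annotated transcripts alone the log2 ratio of TARDBP was 1.997, against 0.00 by fragments.

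TAF15 had log2 ratios of opposite sign by FPKM and by fragments. It was at 19.1 ± 1.22 FPKM in shPSPC1 and 17.2 ± 0.864 in shLacZ, a log2 ratio of 0.14 with overlapping intervals. Its fragments were 1778 in shPSPC1 and 1958 in shLacZ, a log2 ratio of −0.15, also with overlapping intervals. The longer annotated form, which includes a 9-base segment, was at 6.14 ± 0.573 FPKM in shPSPC1 (32.2% of the gene) and 14.4 ± 0.759 in shLacZ (83.7%). In shPSPC1 a 15-exon assembled form of 1402 bases held 9.42 ± 0.956 FPKM, and it lacks the whole 562-base exon that is the last but one of the annotated form. Inclusion of the 9-base segment itself was 81.6% in shPSPC1 and 83.7% in shLacZ, with overlapping bounds. Assembled pieces with no strand inside TAF15, all of them outside its exons, held 1598 fragments in shPSPC1 and 550 in shLacZ, and their part in the result was not tested.

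Among the other hnRNPs and matrin 3 no member passed a fold rule, and MATR3, HNRNPR, HNRNPUL1 and HNRNPA1, whose FPKM was all in transcripts listed in both files, had nearly the same log2 ratio by both measures. MATR3, a nuclear matrix protein that binds RNA and DNA, was at 128 ± 1.93 FPKM in shPSPC1 and 119 ± 1.87 in shLacZ, with 24871 and 22801 fragments and log2 ratios of 0.11 and 0.10. HNRNPR, a close relative of the cytoplasmic RNA-binding protein SYNCRIP, was at 85.1 ± 1.86 FPKM in shPSPC1 and 74.1 ± 1.75 in shLacZ, a log2 ratio of 0.20 by both measures. HNRNPUL1, which takes part in messenger export and the DNA damage response, was at 97.7 ± 1.59 FPKM in shPSPC1 and 93.7 ± 1.58 in shLacZ, with 21565 and 20307 fragments and a log2 ratio of 0.06 by both measures. RBMX, an X-linked splicing factor of the hnRNP G group, was at 79.0 ± 1.85 FPKM in shPSPC1 and 77.0 ± 4.07 in shLacZ, with 13053 and 13631 fragments, log2 ratios of 0.04 and −0.08 and overlapping intervals. An 11-exon assembled RBMX transcript of 3585 bases (28.7 ± 3.15 FPKM) was listed for shLacZ alone.

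HNRNPA1, a splicing regulator whose glycine-rich tail forms condensates, was at 89.3 ± 2.3 FPKM in shPSPC1 and 97.7 ± 2.39 in shLacZ. Its fragments were 8363 in shPSPC1 and 9039 in shLacZ, and its log2 ratio was −0.13 by both measures with intervals apart. The near-identical gene HNRNPA1L2, with which reads may be shared, was at 19.1 FPKM in shPSPC1 and 19.7 in shLacZ. HNRNPA1 is made in 2 annotated forms, and both were listed in both libraries. The form without an alternative 156-base exon was at 68.5 ± 1.96 FPKM in shPSPC1 and 72.9 ± 2.01 in shLacZ, and the form with it at 20.8 ± 1.19 FPKM in shPSPC1 and 24.8 ± 1.3 in shLacZ. Inclusion was 23.3% in shPSPC1 (bounds 21.8 and 24.8) and 25.4% in shLacZ (bounds 23.9 and 26.9), so the balance of the forms did not differ beyond the intervals. The exon is wholly coding and lengthens the glycine-rich tail of the protein.

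The cold-inducible and other RBM proteins were the role group with the lowest median log2 ratio, −0.24 by summed FPKM and −0.22 by fragments. Of its 5 members 4 were below 0 by both measures, none past a fold rule. All 4 had intervals apart by both measures, as 25.6% of all genes had as lower by FPKM and 24.5% by fragments. CIRBP, a cold-inducible RNA-binding protein, was at 39.7 ± 1.52 FPKM in shPSPC1 and 53.1 ± 1.76 in shLacZ. Its fragments were 3244 in shPSPC1 and 4035 in shLacZ, giving log2 ratios of −0.41 (bounds −0.51 and −0.31) by FPKM and −0.32 (bounds −0.42 and −0.22) by fragments. All CIRBP transcripts with a level were annotated and listed in both files. Its coding form was at 35.5 ± 1.48 FPKM in shPSPC1 and 49.8 ± 1.74 in shLacZ, whereas a longer noncoding form of 3263 bases was at 4.21 ± 0.349 FPKM in shPSPC1 and 3.31 ± 0.315 in shLacZ. This noncoding form, whose extra sequence includes the 375 bases between the sixth and the seventh exon of the coding form, made up 10.6% of the gene in shPSPC1 (bounds 9.43 and 11.8) and 6.24% in shLacZ (bounds 5.5 and 7.01), so the ranges lie apart.

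RBM3, the other cold-inducible member, had the highest FPKM of the 31 genes, at 233 ± 5.73 FPKM in shPSPC1 and 274 ± 6.71 in shLacZ. In fragments MATR3 and HNRNPK were above it in both libraries, and HNRNPUL1 was above it in shPSPC1. The log2 ratio of RBM3 was −0.24 by FPKM and −0.06 by fragments, with 19973 fragments in shPSPC1 and 20555 in shLacZ. The 4432-base annotated form was at 63.1 ± 1.06 FPKM in shPSPC1 and 65.0 ± 1.08 in shLacZ, and the rest was in a short assembled form, of 640 bases in shPSPC1 (170 ± 5.63 FPKM) and of 582 bases in shLacZ (209 ± 6.62 FPKM). RBM7, a subunit of the complex that hands nuclear transcripts to the exosome, was at 7.73 ± 0.556 FPKM in shPSPC1 and 9.17 ± 0.61 in shLacZ, with 773 and 904 fragments and a log2 ratio of −0.22 by both measures. RBM4B, a splicing regulator, was the exception, at 5.77 ± 0.509 FPKM in shPSPC1 and 5.12 ± 0.483 in shLacZ, a log2 ratio of 0.15 with overlapping intervals.

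RBM12 had the lowest ratio of the 31 genes by fragments, but not when pooled with the gene that shares its locus. It was at 11.9 ± 0.443 FPKM in shPSPC1 and 17.2 ± 0.437 in shLacZ, with 4434 fragments in shPSPC1 and 6316 in shLacZ, a log2 ratio of −0.49 by FPKM and −0.50 by fragments. RBM12 overlaps, on the same strand, the gene of CPNE1, a calcium-dependent membrane-binding protein. CPNE1 had 32.6 FPKM in shPSPC1 and 33.5 in shLacZ, but 5466 fragments in shPSPC1 and 3611 in shLacZ. Pooled, both genes had 9899 fragments in shPSPC1 and 9927 in shLacZ, a plain log2 ratio of these fragments of −0.00. This is a value of the 2 genes together, and how fragments were shared out between them was not tested. In shPSPC1 an 18-exon assembled transcript of CPNE1 (12.8 FPKM, 3415 fragments, 4857 bases) included 1292 bases that lie in annotated RBM12 exons and in no annotated CPNE1 exon, and no such transcript was listed for shLacZ. The annotated forms of RBM12 with and without a noncoding 32-base segment were at 6.49 and 5.44 FPKM in shPSPC1, while in shLacZ the form with the segment held 17.2 FPKM and the form without it was listed at 0.

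**Figure D3:**
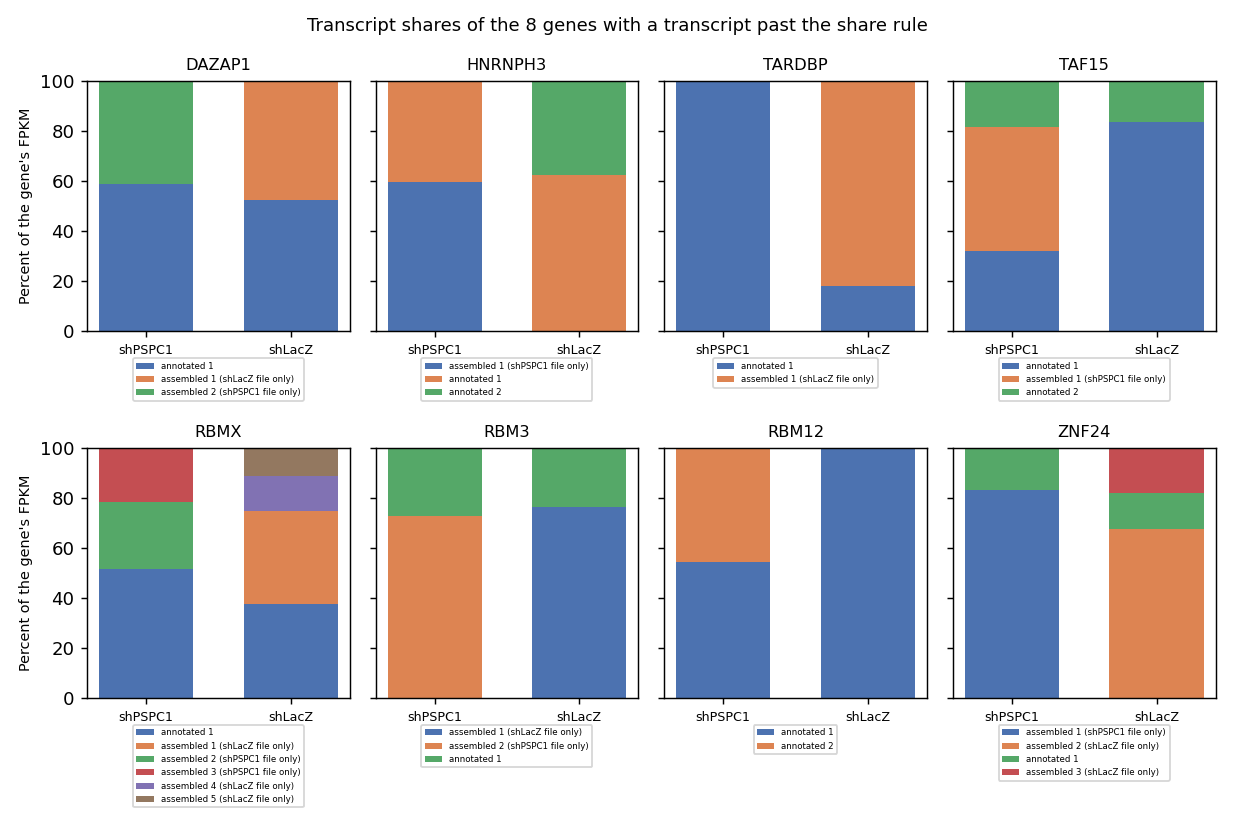
Percent of each gene's FPKM in its transcripts, shPSPC1 left and shLacZ right, for the 8 genes at 5 FPKM or more in both libraries with a transcript whose share differed by at least 0.3 and whose intervals lay apart; colours are transcripts of 1 gene, and the key says which were assembled in 1 file only. TARDBP is 100% annotated in shPSPC1, against 18.2% in shLacZ, and for RBM3 and DAZAP1 the blocks that differ are short forms listed for 1 library each.

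SRRM1, ACIN1 and AKAP8L are proteins of splicing bodies or of the nuclear scaffold. ACIN1, a subunit of the ASAP complex at exon junctions, was at 18.6 ± 0.632 FPKM in shPSPC1 and 26.7 ± 1.69 in shLacZ, a log2 ratio of −0.50 (bounds −0.63 and −0.36). Its fragments were 4970 in shPSPC1 and 5340 in shLacZ, a log2 ratio of −0.12 with overlapping intervals. All its transcripts are annotated and listed in both files. The long forms were higher in shPSPC1, at 11.9 ± 0.49 FPKM against 9.80 ± 1.04 in shLacZ for the 18-exon form and 6.77 ± 0.399 against 4.22 ± 1.04 in shLacZ for the 19-exon form. The short forms of 12 and 13 exons, which begin downstream, were listed at 0 in shPSPC1, against 6.45 ± 0.622 and 6.25 ± 0.564 FPKM in shLacZ. A coding segment of 36 bases, present in the 18-exon and both short forms, was included in 63.6% of FPKM in shPSPC1 and in 84.2% in shLacZ, with bounds apart. By fragments its inclusion was 63.2% in shPSPC1 and 79% in shLacZ. The short forms, listed at 0 in shPSPC1, counted toward inclusion in shLacZ only. A 120-base coding exon of the 19-exon form was included in 36.4% of the FPKM that could hold it in shPSPC1 and in 30.1% in shLacZ, with overlapping bounds. Only the long forms could hold it, and of these with a level only the 18-exon form has the 36-base segment. Between the long forms alone, inclusion of the 36-base segment thus did not differ beyond the bounds. The 36-base segment, by which the forms differ, lies at chr14:23064222-23064257 on GRCh38 (minus strand, GENCODE 29) and is in capitals below.
ACIN1 segment of 36 bases: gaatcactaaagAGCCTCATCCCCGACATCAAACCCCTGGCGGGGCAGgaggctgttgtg

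SRRM1, a serine- and arginine-rich splicing coactivator, was at 4.61 ± 0.319 FPKM in shPSPC1 and 4.90 ± 0.424 in shLacZ, a log2 ratio of −0.07 with overlapping intervals. Its fragments were 1257 in shPSPC1 and 996 in shLacZ, a log2 ratio of 0.26 (bounds 0.08 and 0.45). The assembled SRRM1 transcripts in shPSPC1, of 6297 and 6880 bases, both carried a segment of 2069 bases, and the longer one also a segment of 586 bases, that no SRRM1 transcript with a level in shLacZ carried. AKAP8L, a zinc-finger protein of the nuclear matrix, was at 13.6 ± 0.858 FPKM in shPSPC1 and 12.2 ± 0.667 in shLacZ, log2 ratios of 0.14 and 0.08 with overlapping intervals.

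**Figure D4:**
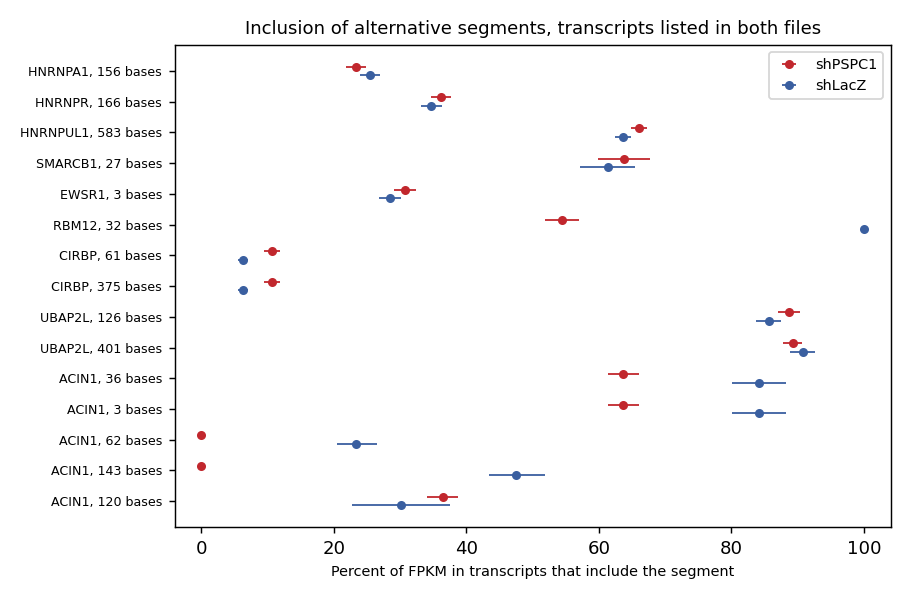
Percent of FPKM in transcripts that include an alternative segment, in shPSPC1 (upper point) and shLacZ (lower point), for members' segments carried by transcripts listed in both files; bars are bounds from the 95% intervals. Inclusion is close in HNRNPA1 (23.3% and 25.4%) and SMARCB1 (63.8% and 61.3%), and differs in CIRBP (10.6% and 6.24%) and the 36-base segment of ACIN1 (63.6% and 84.2%). For ACIN1, short forms listed at 0 in shPSPC1 count toward inclusion in shLacZ only. Bounds also lie apart for other segments, such as those of RBM12 (54.4% and 100%) and HNRNPUL1 (66% and 63.7%).

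Of the remaining genes, 5 of the 6 tested by FPKM had a log2 ratio above 0, with a median of 0.20. By fragments, where FIGN takes the place of ZC3H6 among the 6, the median was 0.21. FAM98A was at 18.7 ± 0.712 FPKM in shPSPC1 and 15.1 ± 0.645 in shLacZ, with 2750 and 2189 fragments and a log2 ratio of 0.29 (bounds 0.18 and 0.40) by both measures. SS18L1, also known as CREST and a paralogue of the SWI/SNF subunit SS18, was at 2.38 ± 0.195 FPKM in shPSPC1 and 1.73 ± 0.168 in shLacZ, with 596 and 426 fragments and a log2 ratio of 0.31 (bounds 0.14 and 0.48) by both measures. For both genes all FPKM was in transcripts listed in both files. ZNF24, a zinc-finger transcription factor, was at 12.4 ± 0.574 FPKM in shPSPC1 and 11.4 ± 0.516 in shLacZ, with 4213 and 3754 fragments and log2 ratios of 0.11 and 0.13. Its main assembled form was at 10.3 FPKM in shPSPC1 and 7.73 FPKM in shLacZ, as transcripts of 6109 and 6137 bases that differ by a 10-base segment and were listed for 1 library each.

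ZC3H6, a zinc-finger protein, was at 1.43 ± 0.272 FPKM in shPSPC1 and 0.466 ± 0.054 in shLacZ, a log2 ratio of 0.73. Its fragments were 329 in shPSPC1 and 297 in shLacZ, a log2 ratio of 0.04, and the annotated transcript alone was at 0.327 FPKM in shPSPC1 and 0.466 in shLacZ. In shPSPC1 the rest was in assembled forms of 2022 and 2026 bases, against 11539 bases for the annotated one, so its place past the 1.5-fold rule rested on 60 and 57 estimated fragments. UBAP2L, a stress-granule protein, was at 22.5 ± 0.792 FPKM in shPSPC1 and 23.5 ± 0.936 in shLacZ. HECTD3, a ubiquitin ligase, was at 4.52 ± 0.302 FPKM in shPSPC1 and 4.15 ± 0.292 in shLacZ, and the intervals of both genes overlapped. Below 1 FPKM in both libraries, the microtubule-severing protein FIGN was at 0.920 ± 0.129 FPKM in shPSPC1 and 0.576 ± 0.111 in shLacZ, the RNA-binding ubiquitin ligase MEX3A at 0.514 ± 0.0777 in shPSPC1 and 0.764 ± 0.0955 in shLacZ, and AHDC1, an AT-hook DNA-binding protein, at 0.310 ± 0.0721 in shPSPC1 and 0.378 ± 0.0854 in shLacZ.

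**Figure D5:**
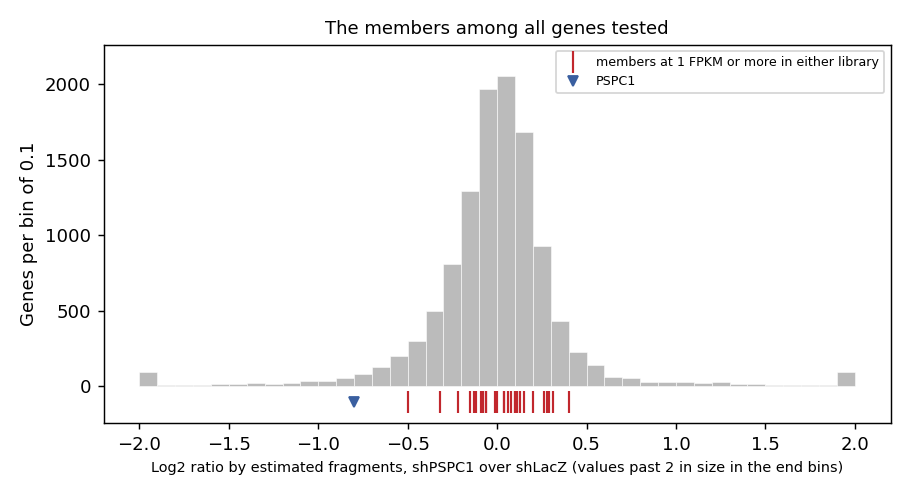
Number of genes per bin of log2 ratio by estimated fragments (shPSPC1 over shLacZ) for the 11480 genes at 1 FPKM or more on that scale in the higher library, with the 28 members that reach 1 summed FPKM as ticks and PSPC1 as a triangle. The members lie between −0.50 for RBM12 and 0.40 for SMARCA4, and PSPC1 at −0.80.

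Transcript forms differed between the files in many genes, members or not. A transcript passed the share rule when its gene was at 5 FPKM or more in both libraries, its share of the gene's FPKM differed by at least 0.3 and its intervals lay apart. Of 23 member genes at that level 8 had such a transcript (34.8%), and of 7108 genes in all 2103 did (29.6%). Those members were DAZAP1, HNRNPH3, TARDBP, TAF15, RBMX, RBM3, RBM12 and ZNF24, with 15 transcripts. By share of fragments the counts were 7 members (30.4%) and 26.7% of all genes. With annotated transcripts alone, 2 of 19 member genes passed (10.5%), against 2.86% of all genes.

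Of 23 other paraspeckle genes, with PSPC1 among them, 19 were tested. Their median log2 ratio was 0.10 by FPKM and 0.09 by fragments, and none was past 1.5-fold as higher. PSPC1 and WTAP were past it as lower by both measures. WTAP, which guides the writer of the RNA mark m6A, was listed at 0 in shPSPC1 and at 38.4 FPKM in shLacZ, and an exact 0 of such a gene can be a failed estimate. The most abundant of this list, HNRNPH1 and HNRNPF, relatives of HNRNPH3, were at 222 ± 3.8 and 178 ± 17.5 FPKM in shPSPC1 and at 191 ± 3.08 and 230.4 ± 3.86 FPKM in shLacZ.

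Of 20 other SWI/SNF subunits none was past 1.5-fold by FPKM, and by fragments 1 was, PHF10, at 363 fragments in shPSPC1 and 870 in shLacZ. The median of that list was 0.01 by both measures. Its most abundant members by the higher library were SMARCE1, at 70.8 ± 2.06 FPKM in shPSPC1 and 61.3 ± 1.76 in shLacZ, and SMARCD2, at 31.2 ± 0.915 FPKM in shPSPC1 and 40.7 ± 1.05 in shLacZ. ACTL6A, an actin-related subunit, was at 35.2 ± 1.5 FPKM in shPSPC1, above SMARCD2 there, and at 36.9 ± 1.77 in shLacZ. SMARCA2, the other ATPase of the complex, was at 11.9 ± 0.491 FPKM in shPSPC1 and 11.1 ± 0.513 in shLacZ, above SMARCA4 in both libraries. Of the 9 exon junction and ASAP partners of SRRM1 and ACIN1, 2 were past 1.5-fold as lower by FPKM, SAP18 and MAGOHB, and 0 by fragments. The median of this list was −0.20 by FPKM, with 7 of 9 below 0, and −0.07 by fragments, with 6 of 9 below 0. SAP18 was at 31.5 ± 1.02 FPKM in shPSPC1 and 51.1 ± 3.56 in shLacZ, with 3837 and 3311 fragments. MAGOHB was at 6.15 ± 0.402 FPKM in shPSPC1 and 24.8 ± 1.61 in shLacZ, with 1246 and 1242 fragments. EIF4A3, the helicase of the junction complex, was at 70.9 ± 2.14 FPKM in shPSPC1 and 75 ± 1.84 in shLacZ. Of the 12 genes of the nuclear exosome and its targeting complex, the partners of RBM7, none was past 1.5-fold by FPKM and 1 by fragments, EXOSC3, with 3164 fragments in shPSPC1 and 1838 in shLacZ. Their median log2 ratio was 0.03 by FPKM and 0.06 by fragments. EXOSC4 was at 38.5 ± 1.92 FPKM in shPSPC1 and 38.1 ± 1.94 in shLacZ, and the helicase MTREX at 35.5 ± 0.785 FPKM in shPSPC1 and 31.8 ± 0.748 in shLacZ.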

How the data were processed

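RNA from 1 shPSPC1 and 1 shLacZ culture of A549 cells was sequenced, and each library was deposited as a transcript assembly. CASAVA 1.8.2, TopHat2 2.0.7 and Cufflinks 2.1.1 are named in the submitters' processing notes. No header or label names the genome build or annotation release. The authors' files hold, for each annotated (RefSeq) or assembled transcript, an FPKM with a 95% interval, per the file headers and attributes. No counts were used.

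A gene's FPKM was summed over its annotated transcripts and the stranded assembled transcripts that share an intron with one of them, and half-widths were combined as the root of the summed squares. Assembled transcripts were matched between files by their introns. Fragments were estimated from FPKM, effective length and depth. To fit the depth, fragments of transcripts alone at their locus were first read from the FPKM and its interval. Of those with 5 to 200 such fragments, 94.5% of 35288 in shPSPC1 and 94.2% of 29032 in shLacZ were within 0.02 of a whole number. These shares do not depend on the fitted depth. Depth was then fitted on the longer of these near-whole transcripts, as a straight line of fragments per FPKM on transcript length. Log2 ratios used a pseudocount of 1 FPKM, except that of the pooled fragments of RBM12 and CPNE1. The rules of size were 2-fold and 1.5-fold, for genes at 1 FPKM or more in the higher library, with intervals apart, over all genes. With 1 library a group there is no test, and the intervals cover counting and assignment error only.

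The alternatives were other pseudocounts, floors, scalings and gene values. Genes were named by level, ratio or share: those past a rule, the 4 highest and 4 lowest by fragments, the 5 most abundant members, those past the share rule, and the 2 most abundant of each partner list. PHF10, SAP18, MAGOHB, EXOSC3 and SMARCA2 were named after their values were seen. Members and lists were chosen with earlier results of these data known, and segment inclusion and the pooling of RBM12 with CPNE1 were chosen after the values were seen. Results for 1 gene of a partner list and 1 exon sequence are not reported here. The scripts were tested on simulated data. Alternative exon sequences were read from the GENCODE 29 transcripts (GRCh38) that carry the same RefSeq identifiers, not by the files' coordinates. Python 3.11.15, numpy 2.4.6 and matplotlib 3.10.9 were used.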

Additional observations from a re-analysis of the deposited data

Results flagged for a closer look

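Some signal lay in assembled pieces that have no strand and belong to no gene sum. Inside MATR3 such pieces held 2145 estimated fragments in shPSPC1 (4 pieces) and 907 in shLacZ (2 pieces), or 8.62% and 3.98% of the gene's own fragments. Inside TAF15 they held 1598 fragments in shPSPC1 (21 pieces) and 550 in shLacZ (13 pieces), or 89.9% and 28.1% of the gene's own. Inside RBM12 they held 141 fragments in shPSPC1 (4 pieces), and no piece was listed for shLacZ. All these pieces lie outside the annotated exons of the member itself. Exons of other genes were not checked, though the annotated span of MATR3 takes in the gene SNHG4 and RBM12 overlaps CPNE1. They were singled out as at least 100 fragments with at least 2-fold more in shPSPC1, a limit chosen after the values were seen. This limit selects 1 direction. Of the 13 members with such pieces, 6 had more fragments in shPSPC1, and others had fewer, such as SMARCA4 with 214 in shPSPC1 and 373 in shLacZ, and SRRM1 with 361 in shPSPC1 and 470 in shLacZ. The whole shPSPC1 file also listed more strandless pieces, 36255 against 29208 in the shLacZ file. The difference has no replicate check.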

How the results depend on the processing

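No paired analysis was possible because each group is 1 library. No member passed the 2-fold rule, against 1 with a pseudocount of 0.1 FPKM (ZC3H6), 1 with the most abundant transcript alone (RBM12) and 2 with annotated transcripts alone, TARDBP (log2 ratio 1.997) and HNRNPK, whose annotated transcripts were listed at 0 in shPSPC1. The 2 members past 1.5-fold became 4 with annotated transcripts alone (HNRNPK, TARDBP, TAF15 and SRRM1), 0 by estimated fragments and 1 with a floor of 5 FPKM. Over all genes the 425 past 2-fold became 1042 with annotated transcripts alone and 261 with the floor of 5 FPKM, and the 1131 past 1.5-fold became 2105 and 730. With annotated transcripts alone HNRNPH3 turned to −0.47 and ZC3H6 to −0.14. The log2 ratio of PSPC1 (−0.79) was −2.46 with annotated transcripts and −0.58 with the most abundant one. The median of the other paraspeckle genes (0.10) was −0.15 with the most abundant transcript, and that of the exon junction partners (−0.20) was 0.17 with annotated transcripts and −0.068 by fragments. The 15 transcripts past the share rule became 26 at a change of 0.2 and 4 with annotated transcripts alone. Of 217 values of single members under these alternatives, 179 moved by less than their own interval, and the sign turned in 19, over 11 genes (ACIN1, AKAP8L, FIGN, HNRNPH3, HNRNPK, RBMX, SMARCA4, SRRM1, TAF15, TARDBP and ZC3H6). The cause of these changes was not tested. Rescaling the shPSPC1 values, to a median log2 ratio of 0 or to the upper quartile, moved none of the member values by more than its interval.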

Other observations

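The promoters of the members were rich in CG dinucleotides. RefSeq promoter windows of 300 bases on GRCh38.p14 matched 28 of the 31 genes, with a median GC content of 64.3%, against 58.7% over 35116 windows of all genes. The median number of CG dinucleotides was 27 per member window and 14 per window of all genes. The letters TATAAA, searched on both strands, were in 1 of 28 windows (3.57%), that of RBMX, and in 11.5% of all windows. CCGGAAG, on either strand, was in 4 windows (14.3%), those of AHDC1, RBM12, RBM3 and ZNF24, and in 10.3% of all windows. These are descriptions with no test, and abundant genes as a class were not compared.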
